A study of Mus musculus with 11 samples.

Results

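Transcripts of 8 genes that move ions, water and folate across the choroid plexus epithelium were followed through RNA-seq libraries of dissected mouse lateral habenula. The genes were Aqp1, Kcne2, Kcnj13, Clic6, Car12, Trpv4, Folr1 and Slc4a5. They were chosen by name, with earlier results of these data known. The shares of all genes given below are a scale for the counts of calls, not a test of the 8 genes as a set. All 8 were found among the 54532 genes of the count table, and all 8 had enough reads to be among the 19619 genes tested. The 11 libraries came from BALB/c mice aged 3 months in 4 groups: 3 Female Ctrl, 3 Female CAIA, 2 Male Ctrl (replicates 1 and 3) and 3 Male CAIA. CAIA is collagen antibody-induced arthritis, a mouse model of rheumatoid arthritis. CAIA mice were injected intraperitoneally with a cocktail of 5 antibody clones against type II collagen at 50 mg/kg, and 3 days later with lipopolysaccharide (LPS) at 1 mg/kg. Ctrl mice received vehicle. Antibody, arthritis and LPS therefore cannot be told apart in any comparison here. The study's stated interest was depression that accompanies rheumatoid arthritis.

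The choroid plexus is a folded epithelium in the brain ventricles that secretes cerebrospinal fluid. Its cells carry sodium, chloride and bicarbonate from blood to ventricle, water follows, and folate is brought into the fluid by a receptor on the same cells. The habenula borders the third ventricle, whose plexus lies close above it.

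The 5 Ctrl and 6 CAIA libraries held 25317306 to 29565006 counts each. Lateral habenula markers summed to 679.5 to 846.7 CPM (counts scaled to the effective library size) in the Ctrl libraries and 675.3 to 813.4 CPM in the CAIA libraries. Medial habenula markers summed to 772 to 1171 CPM and 853 to 1131 CPM. Habenula tissue was thus present in both, and the sums do not show the lateral part alone. A list of 12 choroid plexus markers outside the 8 genes summed to 2730 to 5601 CPM in the Ctrl libraries. The female CAIA libraries held 274 to 296 CPM of these markers and the male CAIA libraries 310 to 2140 CPM, the highest being Male CAIA replicate 2. The markers fell unevenly. In females the mean of Ttr went from 2251 CPM in Ctrl to 28.7 CPM in CAIA, and that of Enpp2 from 1299 to 164 CPM. The sum is therefore not a measure of how much plexus was left. Male CAIA replicate 2 also had the highest level of each of the 8 genes among the CAIA libraries, and the fold changes and counts of calls are given with and without it.

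The 250 bases upstream of 3 of the genes are shown before the values: Kcne2 and Aqp1, which had the least left in female CAIA libraries, and Kcnj13, whose window holds a TATA box. They are RefSeq sequence of build GRCm38.p6, read 5′ to 3′ on the strand of the gene. The reference strain is C57BL/6J and the mice were BALB/c. Capitals mark the motif TATAAA.
Kcne2, plus strand, chr16:92292139-92292388: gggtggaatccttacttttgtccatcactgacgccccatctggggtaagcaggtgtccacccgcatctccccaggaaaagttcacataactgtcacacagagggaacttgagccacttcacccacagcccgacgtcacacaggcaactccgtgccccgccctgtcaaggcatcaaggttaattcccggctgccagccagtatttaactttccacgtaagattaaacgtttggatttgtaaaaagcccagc
Kcnj13, minus strand, chr1:87394730-87394979: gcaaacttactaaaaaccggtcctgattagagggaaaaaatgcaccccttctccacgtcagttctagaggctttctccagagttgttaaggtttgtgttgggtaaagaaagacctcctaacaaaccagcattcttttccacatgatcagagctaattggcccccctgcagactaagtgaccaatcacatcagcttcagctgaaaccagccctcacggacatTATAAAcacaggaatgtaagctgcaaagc
Aqp1, plus strand, chr6:55336049-55336298: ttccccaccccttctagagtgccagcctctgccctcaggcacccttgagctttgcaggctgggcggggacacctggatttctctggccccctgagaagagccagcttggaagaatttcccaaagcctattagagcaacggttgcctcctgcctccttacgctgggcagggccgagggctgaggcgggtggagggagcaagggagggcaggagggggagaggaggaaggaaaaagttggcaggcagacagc
RefSeq's table listed such a window for 6 of the 8 genes, all but Clic6 and Folr1. A set of 4 motifs was searched on both strands of these windows. TATAAA, the TATA box, was present in 12.4% of all 32851 windows of this length. Among the members it was found in Kcnj13, beginning 29 bases before the start, and in Slc4a5 on the opposite strand. TAATCC, the core recognised by the homeodomain factor OTX2, was present in 6.25% of all windows and in no window of a member. The forkhead core GTAAACA (3.17% of all windows) and the cyclic AMP response element TGACGTCA (1.55%) were likewise in no member's window, so no motif overlapped another. Base composition also differed between members, from 45.2% G or C at Kcnj13 to 72.0% at Trpv4, with a median of 52.4% over all windows. A match is a description of letters, and the factors themselves were not measured by it.

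For none of the 8 genes did a CAIA library of either sex reach the lowest Ctrl library. In females the mean CAIA level was between 2.18% (Aqp1) and 12.03% (Folr1) of the Ctrl mean. In males it was between 19.3% (Slc4a5) and 30.5% (Car12). Such a separation, with CAIA below, was found in 1.01% of the genes tested. In bulk tissue, fewer cells of a type and less RNA per cell cannot be told apart. The labels do not say that the libraries came from separate animals, so p-values here reflect only sample-to-sample spread, part of which may be technical.

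**Figure D1:**
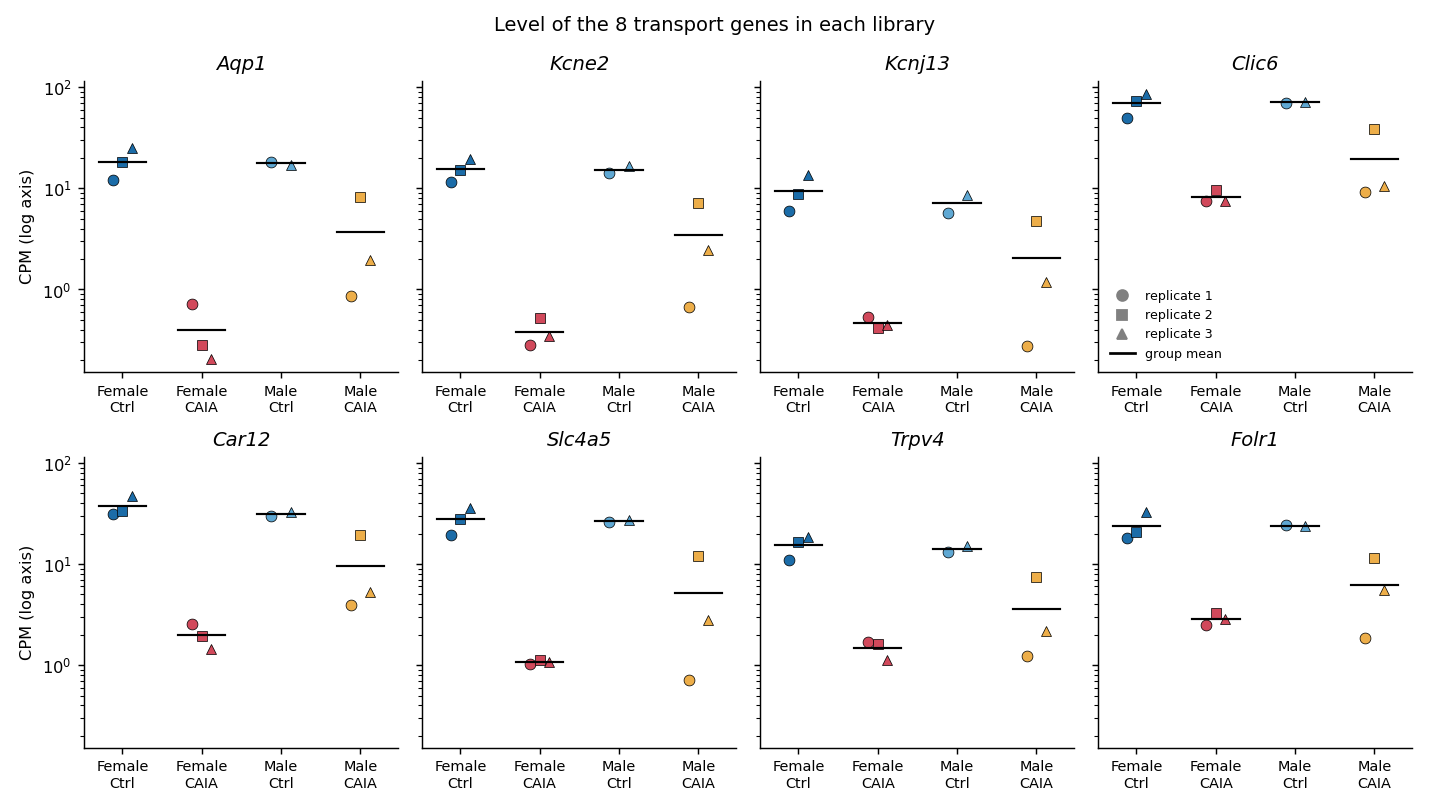
Level of each of the 8 genes in each library, in CPM on a log axis, by group, with 1 point per library and a bar at the group mean. For every gene the 6 CAIA points lie below all 5 Ctrl points, and Male CAIA replicate 2 is the CAIA point nearest to them (for Aqp1, 8.21 CPM against 12.02 CPM in the lowest Ctrl library).

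Over both sexes, edgeR's quasi-likelihood test with Benjamini-Hochberg adjustment at 0.05 called 5 of the 8 genes lower in CAIA: Aqp1, Kcne2, Car12, Trpv4 and Folr1. It called 0.576% of all genes lower. Kcnj13, Clic6 and Slc4a5 missed the threshold, with adjusted p-values of 0.0814, 0.0550 and 0.0633. The median log2 fold change was -3.02 over the 8 genes and 0.0 over all genes tested. Leaving out Male CAIA replicate 2 brought all 8 genes past the threshold, with adjusted p-values from 1.94e-06 to 0.000908 and 0.849% of all genes called lower. Leaving out Male CAIA replicate 1 gave 7 calls, against 0.481% of all genes lower, and leaving out Female Ctrl replicate 1 gave 2, against 0.589%. Without any 1 of the Female CAIA libraries, Female Ctrl replicates 2 and 3 or Male CAIA replicate 3, edgeR called 0 of the 8. The smallest adjusted p by edgeR was then 0.0582 to 0.104. Fewer genes of all those tested were called lower too, 40 to 68 against 113 with every library in. In these fits all 8 were still negative and at an unadjusted p under 0.05. All 8 were also negative without either Male Ctrl library, which left 1 in that group. DESeq2, with every library in, called all 8 against 1% of all genes lower.

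In females, no member passed by edgeR when all 4 groups set the spread (smallest adjusted p = 0.0553 for Kcne2), and 0.255% of all genes were called lower. All 8 had an unadjusted p under 0.05. Fitted on the female libraries alone, all 8 genes were called, against 0.58% of all genes. Without Male CAIA replicate 2 in the fit of all groups, 8 were called in females, against 0.53% of all genes, and without Male CAIA replicate 1, 7 were, against 0.517%. Without any 1 of the female libraries or Male CAIA replicate 3, edgeR called 0 of the 8 in females. The smallest adjusted p by edgeR was then 0.0703 to 0.329, and 0 to 57 of all genes were called lower. DESeq2 called 8 with every library in, against 0.857% of all genes.

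In males, no member passed by edgeR, DESeq2 or limma-voom, and edgeR called 0% of all genes lower, although all 8 had an unadjusted p under 0.05 in each of these. DESeq2 called 0.199% of all genes lower in males. Fitted on the male libraries alone, no member passed or had an unadjusted p under 0.05 by edgeR, and 0.0106% of all genes were called lower. Without Male CAIA replicate 2, 7 of the 8 were called in males, all but Folr1 (adjusted p = 0.0546), against 0.185% of all genes. The difference between the CAIA effects of the sexes passed for none of the 8 genes and for 0% of all genes in edgeR. In edgeR the adjusted p of that difference was 0.978 for each of the 8 genes. Kcne2 (0.0192), Car12 (0.0224) and Aqp1 (0.0311) had an unadjusted p under 0.05. DESeq2 gave 4 members under 0.05 unadjusted for this difference, and none after adjustment.

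Aqp1 encodes aquaporin-1, the water channel of the epithelium's ventricle-facing membrane (ENSMUSG00000004655, GRCm38 chromosome 6, 55336432 to 55348555, plus strand). Its level was 12.02, 18.0 and 24.8 CPM in Female Ctrl 1 to 3 and 18.4 and 17.2 CPM in Male Ctrl 1 and 3. It was 0.711, 0.279 and 0.206 CPM in Female CAIA 1 to 3, which rest on 20, 8 and 6 counts, and 0.868, 8.21 and 1.98 CPM in Male CAIA 1 to 3. Every female CAIA library and Male CAIA 1 were under 1 CPM, while Male CAIA 2 kept 46.2% of the male Ctrl mean. The log2 fold change over both sexes was -3.89 ± 0.59 (SE, adjusted p = 0.0395 by edgeR), and -4.58 ± 0.32 without Male CAIA replicate 2. By sex it was -5.51 ± 0.91 in females (adjusted p = 0.0851) and -2.27 ± 0.74 in males (adjusted p = 0.761).

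The potassium channel genes were next. Kcne2 encodes a small accessory subunit of potassium channels that is placed in the ventricle-facing membrane with KCNQ1 and KCNA3 (ENSMUSG00000039672, chromosome 16, 92292389 to 92298129, plus strand). It stood at 11.6, 15.4 and 19.5 CPM in Female Ctrl and at 14.1 and 16.6 CPM in Male Ctrl. In Female CAIA it stood at 0.285, 0.523 and 0.344 CPM, from 8, 15 and 10 counts, and in Male CAIA at 0.671, 7.15 and 2.48 CPM. The groups did not overlap, and the 3 female CAIA libraries were closer to each other than the 3 male ones. Its log2 fold change of -3.74 ± 0.52 over both sexes had the lowest adjusted p of the 8 (0.0249 by edgeR). In females it was -5.32 ± 0.80 and in males -2.16 ± 0.65. Without Male CAIA replicate 2 it was -4.30 over both sexes.

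Kcnj13 encodes the inward rectifier potassium channel Kir7.1, also of the ventricle-facing membrane (ENSMUSG00000079436, chromosome 1, 87386363 to 87394729, minus strand). Its Ctrl levels were 5.95, 8.88 and 13.4 CPM in females and 5.76 and 8.61 CPM in males. The CAIA levels were 0.534, 0.419 and 0.447 CPM in females and 0.276, 4.71 and 1.19 CPM in males. Male CAIA 2 came close to the lowest Ctrl library here, with 65.6% of the male Ctrl mean. The log2 fold change over both sexes was -3.07 ± 0.58 (adjusted p = 0.0814 by edgeR), and -3.80 ± 0.35 without that library (adjusted p = 0.000235). The gene lies within Gigyf2 on the opposite strand and shares 623 exonic bases with it, so without a stated strand setting reads of both cannot be told apart. Gigyf2 itself averaged 78.8 CPM in Ctrl and 78.9 CPM in CAIA.

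Clic6 and Slc4a5 represent chloride and bicarbonate. Clic6 belongs to the chloride intracellular channel family (ENSMUSG00000022949, chromosome 16, 92485736 to 92541243, plus strand). It was measured at 50.0, 73.0 and 85.3 CPM in Female Ctrl and 70.2 and 71.9 CPM in Male Ctrl. The female CAIA libraries had 7.58, 9.73 and 7.49 CPM and the male ones 9.20, 38.7 and 10.6 CPM. So 5 of the 6 CAIA libraries fell within a narrow band, from 7.49 to 10.6 CPM. The log2 fold change was -2.47 ± 0.40 over both sexes (adjusted p = 0.0550 by edgeR), -3.07 ± 0.57 in females and -1.87 ± 0.57 in males. Without Male CAIA replicate 2 it was -2.97 over both sexes.

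Slc4a5 encodes the sodium bicarbonate cotransporter NBCe2 of the ventricle-facing membrane (ENSMUSG00000068323, chromosome 6, 83219828 to 83304945, plus strand). Its Ctrl levels were 19.6, 27.8 and 35.7 CPM in females and 26.2 and 27.3 CPM in males. Its female CAIA levels were nearly the same in all 3 libraries, at 1.03, 1.12 and 1.07 CPM, and the male ones spread from 0.710 CPM in replicate 1 through 2.80 CPM in replicate 3 to 12.01 CPM in replicate 2. The log2 fold change was -3.53 ± 0.59 over both sexes (adjusted p = 0.0633 by edgeR), -4.69 ± 0.88 in females and -2.38 ± 0.79 in males. Without Male CAIA replicate 2 it was -4.30 over both sexes.

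Car12 encodes carbonic anhydrase 12, a membrane enzyme that interconverts carbon dioxide and bicarbonate outside the cell (ENSMUSG00000032373, chromosome 9, 66713686 to 66766845, plus strand). It was measured at 31.0, 33.5 and 47.6 CPM in Female Ctrl and 29.8 and 32.8 CPM in Male Ctrl. CAIA females had 2.56, 1.95 and 1.44 CPM and CAIA males 3.95, 19.4 and 5.25 CPM. All 3 male CAIA libraries were above all 3 female ones. Male CAIA 2 kept 62.1% of the male Ctrl mean, and the other males 12.6% and 16.8%. Car12 had a log2 fold change of -2.98 ± 0.44 over both sexes (adjusted p = 0.0364 by edgeR), -4.23 ± 0.64 in females and -1.72 ± 0.59 in males. Over both sexes it was -3.51 without Male CAIA replicate 2.

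Trpv4 encodes a calcium-permeable cation channel opened by cell swelling and warmth, and in the plexus it is known for effects on ion flux (ENSMUSG00000014158, chromosome 5, 114622152 to 114658421, minus strand). Its levels were 10.9, 16.4 and 18.6 CPM in Female Ctrl, 13.1 and 15.1 CPM in Male Ctrl, 1.71, 1.61 and 1.13 CPM in Female CAIA and 1.22, 7.42 and 2.16 CPM in Male CAIA. With Male CAIA 2 aside, the CAIA libraries of the sexes ran into each other, from 1.13 to 2.16 CPM. Trpv4 had a log2 fold change of -2.67 ± 0.41 over both sexes (adjusted p = 0.0362 by edgeR) and -3.22 ± 0.20 without Male CAIA replicate 2.

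Folr1 encodes folate receptor alpha, which binds folate at the blood-facing side and carries it to the fluid (ENSMUSG00000001827, chromosome 7, 101858331 to 101870788, minus strand). Its levels were 18.1, 20.8 and 32.5 CPM in Female Ctrl and 24.3 and 23.6 CPM in Male Ctrl. In CAIA it was at 2.49, 3.24 and 2.85 CPM in females and 1.86, 11.4 and 5.50 CPM in males. The lowest CAIA library was a male one, and so was the highest. Its log2 fold change was -2.50 ± 0.39 over both sexes (adjusted p = 0.0409 by edgeR) and -2.88 ± 0.28 without Male CAIA replicate 2. In males it was -1.94 ± 0.55 in the fit of all 4 groups, and -2.70 ± 0.42 in that fit without Male CAIA replicate 2.

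Per kilobase of annotated exon, the scale used here to compare levels between genes, Clic6 was the most abundant in the 5 Ctrl libraries at 17.9 ± 3.24 CPM per kb (SD). Folr1 followed at 10.4 ± 2.36 and Kcne2 at 8.73 ± 1.65. Aqp1 (6.88 ± 1.73), Kcnj13 (6.71 ± 2.44), Slc4a5 (4.71 ± 0.99), Car12 (4.60 ± 0.95) and Trpv4 (3.64 ± 0.73 CPM per kb) came after. From Folr1 down, the mean ± SD of each gene overlapped that of its neighbour in this order, and Clic6 alone stood clear of the gene after it. These SDs are between libraries and do not decide the order within a library. In each of the 5 Ctrl libraries Folr1 was above Kcne2, Kcne2 above Aqp1 and Car12 above Trpv4. Kcnj13 was also above Slc4a5 in each, though narrowly in a Male Ctrl library. Aqp1 and Kcnj13 changed places between Ctrl libraries, and so did Slc4a5 and Car12. Clic6 and Folr1 also had the highest means in CAIA, at 2.11 ± 0.32 and 1.25 ± 0.16 CPM per kb in females (SD, n = 3) and 4.98 ± 4.25 and 2.71 ± 2.08 CPM per kb in males (SD, n = 3). Kcne2 stood at 0.217 ± 0.07 CPM per kb in Female CAIA, below Kcnj13 (0.367), Trpv4 (0.364) and Car12 (0.261). Slc4a5 (0.185) and Aqp1 (0.152 CPM per kb) were lower still. In Male CAIA Kcne2 came after Folr1 at 1.94 ± 1.89 CPM per kb. The wide SDs there do not decide an order either, since all genes were measured in the same libraries. In each Male CAIA library Clic6 was above Folr1 per kilobase, and Folr1 above Kcne2. The count ratios of Clic6 to Folr1 were 4.96, 3.41 and 1.92, with exon lengths of 3.914 and 2.297 kb. Those of Kcne2 to Folr1 were 0.362, 0.630 and 0.451, with 1.767 kb for Kcne2. Kcne2 and Car12 changed places between these libraries.

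What was left differed from gene to gene. In females the CAIA mean was 2.18% of the Ctrl mean for Aqp1, 2.48% for Kcne2, 3.87% for Slc4a5, 4.95% for Kcnj13 and 5.32% for Car12. It was 9.68% for Trpv4, 11.9% for Clic6 and 12.03% for Folr1. In males Slc4a5 and Aqp1 were the lowest, at 19.3% and 20.7%. Kcne2 had 22.4% left, Trpv4 25.6%, Folr1 26.0%, Clic6 27.4%, Kcnj13 28.6% and Car12 30.5%. With Male CAIA replicate 2 left out, the male values ran from 6.56% for Slc4a5 and 8.01% for Aqp1 to 14.7% for Car12 and 15.4% for Folr1. Male CAIA 2 alone kept between 44.9% (Slc4a5) and 65.6% (Kcnj13).

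**Figure D2:**
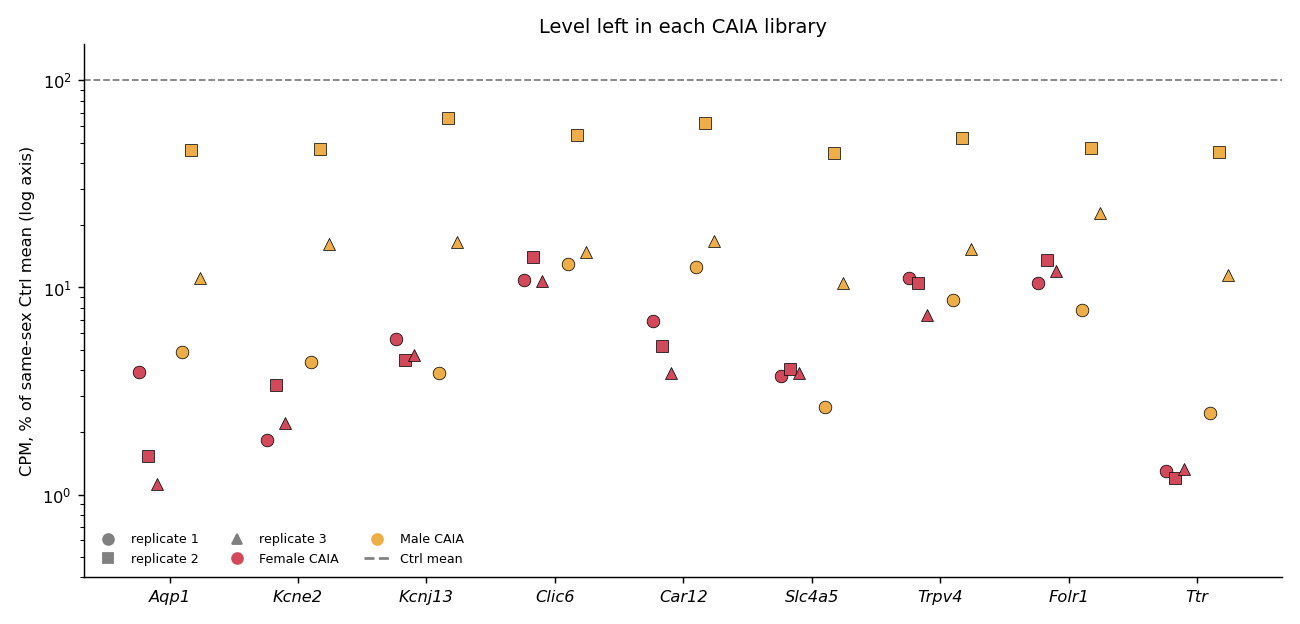
Level of each gene in each CAIA library as a percent of the mean Ctrl level of the same sex, on a log axis, with Ttr for comparison and a dashed line at the Ctrl mean. Points of 1 gene span from 1.13% to 46.2% for Aqp1 and from 10.8% to 54.4% for Clic6.

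Whether the 8 genes kept fixed proportions to each other was read from ratios of their counts within each library, which need no scaling between libraries. All 28 pairs were tested, with the 8 ratios to Ttr (transthyretin), by an exact two-sided permutation test within sex over 200 arrangements, for which the smallest possible p is 0.005. After Benjamini-Hochberg adjustment over the 36 ratios, 10 of the 28 pairs changed between Ctrl and CAIA. The 28 pairs share 8 genes and are not independent, and pairs of other genes were not tested. Reads from cells outside the plexus can also shift a ratio when plexus reads fall. How much of each member's level came from such cells was not measured. The pairs fell into a pattern described after the values were seen. No pair within Aqp1, Kcne2 and Slc4a5 passed (0 of 3), and none within Clic6, Trpv4 and Folr1 (0 of 3). Of the pairs between these sets 7 of 9 passed, and of those that involve Car12 or Kcnj13, 3 of 13 passed. With either Male Ctrl library left out no ratio passed (smallest adjusted p 0.0692 and 0.0818), and with 1 Female Ctrl library left out 3 or 4 pairs did. Leaving out Male CAIA replicate 2 gave 10 pairs and 6 ratios to Ttr that passed.

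Aqp1 moved farthest against Clic6. The count ratio of Aqp1 to Clic6 was 0.240, 0.247 and 0.291 in Female Ctrl and 0.262 and 0.238 in Male Ctrl. In Female CAIA it was 0.0939, 0.0287 and 0.0275, and in Male CAIA 0.0944, 0.212 and 0.187. All CAIA values lay below all Ctrl values, although Male CAIA 2 and 3 were close to them. The log2 ratio changed by -1.61 (exact permutation p = 0.010, adjusted p = 0.036), by -2.55 in females and -0.67 in males.

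Slc4a5 behaved likewise against the same partners. The ratio of Clic6 to Slc4a5 was 2.56, 2.62 and 2.39 in Female Ctrl and 2.67 and 2.63 in Male Ctrl, then 7.34, 8.72 and 7.03 in Female CAIA and 12.9, 3.22 and 3.77 in Male CAIA. The 5 Ctrl values were tight and every CAIA value was higher (log2 change 1.297, exact permutation p = 0.015, adjusted p = 0.036). Slc4a5 to Folr1 went from between 1.08 and 1.34 in Ctrl to between 0.344 and 1.06 in CAIA (-1.26, exact permutation adjusted p = 0.036). Slc4a5 to Trpv4 went from between 1.69 and 2.00 to between 0.581 and 1.62 (-1.06, exact permutation adjusted p = 0.036). These 3 pairs and Aqp1 to Clic6 were the 4 of 28 whose Ctrl and CAIA ranges did not overlap.

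**Figure D3:**
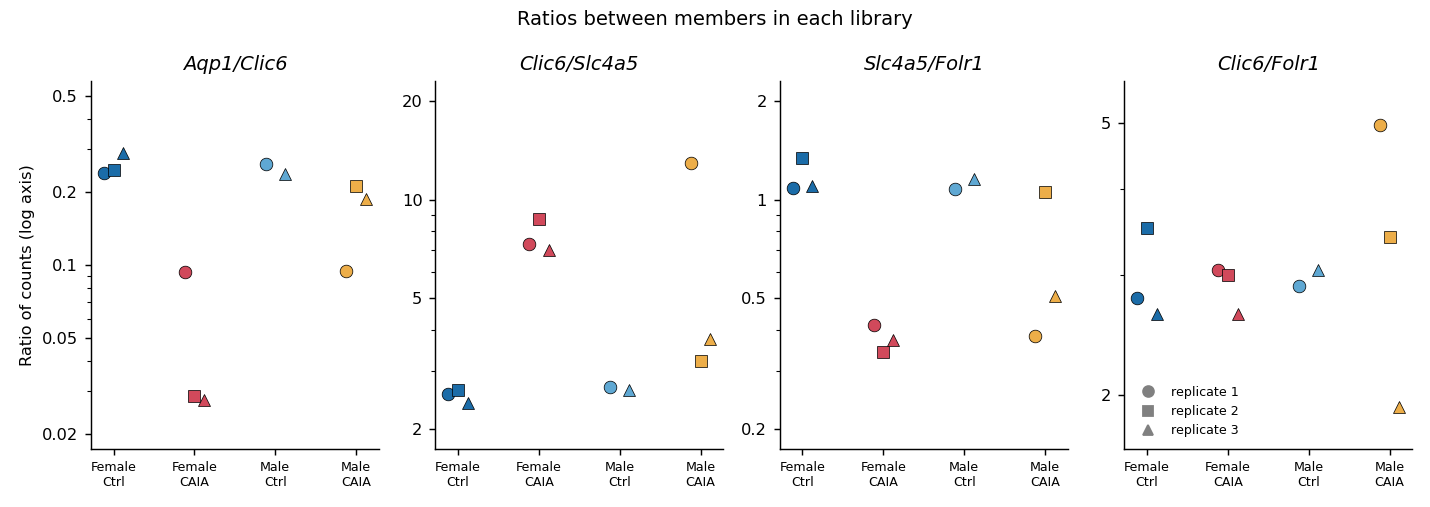
Ratio of the counts of 2 genes in each library, on a log axis, by group, with 1 point per library and the marker shape giving the replicate number. Aqp1 to Clic6 and Slc4a5 to Folr1 are lower and Clic6 to Slc4a5 is higher in every CAIA library than in the Ctrl libraries, while Clic6 to Folr1 overlaps, from 1.92 to 4.96 in CAIA.

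Other pairs that passed had overlapping ranges or smaller changes. Aqp1 fell against Car12 (-1.07), Trpv4 (-1.37) and Folr1 (-1.58), and Kcne2 against Car12 (-0.85) and Folr1 (-1.36). Kcnj13 rose against Slc4a5 by 0.52, the smallest change that passed (exact permutation p = 0.005, adjusted p = 0.036). Kcne2 against Clic6 (-1.39) and against Trpv4 (-1.15) missed, both with an exact permutation adjusted p of 0.070.

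Some ratios moved little over both sexes together. Clic6 to Folr1 was between 2.62 and 3.51 in Ctrl and between 1.92 and 4.96 in CAIA, a log2 change of 0.03 (exact permutation p = 0.895). Clic6 to Trpv4 changed by 0.24 (exact permutation p = 0.17) and Trpv4 to Folr1 by -0.21 (exact permutation p = 0.34). Aqp1 to Kcne2 changed by -0.22 (exact permutation p = 0.585). Kcne2 to Slc4a5 had a change of -0.09 over both sexes (exact permutation p = 0.675), but by sex it went opposite ways, by -0.66 in females and 0.47 in males. Its female CAIA values of 0.276, 0.469 and 0.323 were all below the Ctrl range of 0.538 to 0.607, while Male CAIA had 0.944, 0.595 and 0.885. Aqp1 to Slc4a5 also differed in sign, by -0.96 in females and 0.34 in males (exact permutation p = 0.345 over both), and the difference between sexes was not tested for either. These p-values do not show that the ratios were constant. In 27 of the 28 pairs the ratio spread more over the CAIA libraries, with an SD of the log2 ratio of 0.162 to 1.3 against 0.0639 to 0.339 in Ctrl. Low counts widen a ratio by counting error alone. Aqp1, for example, had 6 to 20 counts in Female CAIA and 309 to 728 in Female Ctrl. How much of the wider spread came from counting was not tested.

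The ratios can also be read as each gene's share of the 8 genes' summed counts. Clic6 made up 30.7% to 34.8% of the sum in the 5 Ctrl libraries. It made up 44.8%, 51.6% and 50.0% in Female CAIA 1 to 3 and 49.1% in Male CAIA 1, with exact 95% binomial intervals from 40.3% to 55.9% over these 4 libraries. In Male CAIA 2 and 3 its share was 35.5% and 33.1%, near the Ctrl range. The chi-square per degree of freedom for a common make-up of the 8 genes was 1.96 within Female CAIA and 4.61 within Female Ctrl, and 7.26 within Male CAIA and 3.23 within Male Ctrl. It was 8.80 in Male CAIA without replicate 2, 8.82 over all CAIA libraries and 4.77 over all Ctrl libraries. This measure grows with the number of counts, which was 1452 in Female CAIA and 17675 in Female Ctrl. The lower value in Female CAIA therefore does not show that those libraries were closer to one make-up.

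Aqp1 made up 7.55% to 9.10% of the sum in Ctrl and 4.21%, 1.48% and 1.38% in Female CAIA, the lowest of these with an exact interval of 0.507% to 2.97%. In Male CAIA its share was 4.63%, 7.53% and 6.19%. Slc4a5 made up 12.3% to 13.0% in Ctrl, between 5.92% and 7.11% in Female CAIA and 3.79% in Male CAIA 1, and it was 11.03% and 8.78% in Male CAIA 2 and 3. Folr1 was above its Ctrl range of 9.74% to 12.03% in all 3 female CAIA libraries (14.7%, 17.2% and 19.0%) and in Male CAIA 3 (17.2%). The summed counts behind these shares were 4091 to 8141 in Ctrl, and 436 to 541 in Female CAIA and Male CAIA 1, 888 in Male CAIA 3 and 2775 in Male CAIA 2. The intervals cover counting error only, since reads are not independent molecules.

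**Figure D4:**
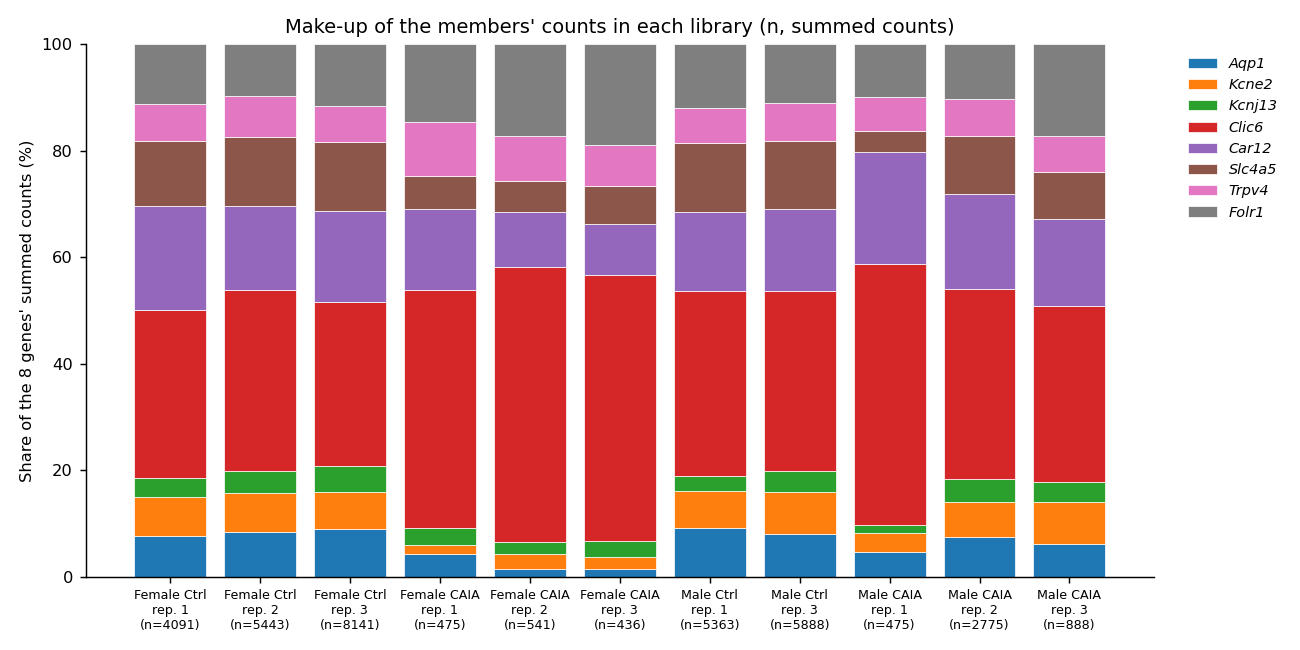
Share of each gene in the 8 genes' summed counts, in percent, with 1 bar per library. In the 5 Ctrl bars Clic6 takes 30.7% to 34.8%, and it takes 44.8% or more in 4 of the 6 CAIA bars.

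The reads that went missing had nearly the Ctrl composition. Of the summed CPM lost between Ctrl and CAIA in females, Clic6 made up 30.6% against 32.0% of the Ctrl sum, Aqp1 8.95% against 8.44%, Slc4a5 13.3% against 12.8% and Folr1 10.47% against 10.97%. In males Clic6 made up 33.4% of the loss against 34.3% of the Ctrl sum, and Aqp1 9.13% against 8.56%. This is a restatement of the same levels, not a separate measurement, and with most of each gene's level lost the loss has to resemble the Ctrl sum.

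Ttr, which encodes a thyroid hormone carrier secreted by the plexus, was set beside the members as a reference. It stood at 1469 to 3289 CPM in Ctrl, at 29.2, 27.0 and 29.9 CPM in Female CAIA, and at 65.6, 1188 and 305 CPM in Male CAIA. In females 1.28% of the Ctrl level was left, less than for any of the 8 genes, and in males 19.7%, just above Slc4a5. Its log2 fold change over both sexes was -4.32 ± 0.71 (adjusted p = 0.0620 by edgeR). Relative to Ttr, 6 of the 8 genes were higher in CAIA in the ratio test. Clic6 to Ttr changed by 2.09 log2 units, Folr1 by 2.06, Trpv4 by 1.85, Car12 by 1.55, Kcnj13 by 1.31 and Kcne2 by 0.70, each with an exact permutation adjusted p of 0.036 or, for Clic6, 0.045. The ratios of Slc4a5 (0.79) and Aqp1 (0.48) to Ttr had adjusted p-values of 0.090 and 0.252 by the same exact permutation test.

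Other cell types were read from marker lists beside these values. Of the 12 choroid plexus markers outside the 8 genes, 11 showed CAIA below Ctrl with no overlap, 5 passed the edgeR test, and their median log2 fold change was -2.12. Over all genes tested, 1.01% showed such a separation and 0.576% were called lower by edgeR over both sexes. No marker of any list was at 0 in all libraries. Ependymal markers, the ciliated lining next to the plexus, summed to 74.9 to 110.2 CPM in Ctrl and 60.1 to 106 CPM in CAIA, and none of the 5 tested passed. Markers of meningeal fibroblasts, which also fill the plexus stroma, summed to 52.9 to 70.7 CPM in Female Ctrl and 36.1 to 41.5 CPM in Female CAIA. In males they summed to 44.9 to 55.5 CPM in Ctrl and 34.2 to 51.7 CPM in CAIA, and 2 of 6 passed over both sexes. Their part in the result was not tested.

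Markers of the surrounding tissue overlapped between Ctrl and CAIA. Astrocyte markers summed to 1120 to 1563 CPM in Ctrl and 1301 to 1472 CPM in CAIA, and medial habenula markers to 772 to 1171 CPM and 853 to 1131 CPM. None of the tested markers of astrocytes, medial habenula or lateral habenula passed, nor any of endothelium, oligodendrocytes or microglia. Erythroid genes, a sign of blood in the tissue, summed to 58.4 to 127 CPM in Ctrl and 54.6 to 166 CPM in CAIA. Pineal markers, from the gland behind the habenula, reached 6.89 CPM in Ctrl and 26.0 CPM in CAIA, with as little as 0.987 CPM in another CAIA library. How much plexus each dissection included was not recorded in the labels, and it cannot be told apart from a change in the plexus itself.

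Transport genes known from the choroid plexus but outside the 8 had smaller fold changes. The list was not limited to genes of the plexus alone, and Aqp4 is also one of the astrocyte markers above. In bulk tissue, reads from other cells can mask a change in the plexus. How much of each gene's level came from the plexus was not measured. Of 37 such genes, 36 were tested, all but Aqp7. By edgeR 2 passed as lower, 0 as higher, and 20 had a negative log2 fold change with a median of -0.03. Of all genes tested, edgeR called 0.576% lower, and 9800 of 19619 had a negative log2 fold change. Both that passed belong to acid and base handling. Slc4a2, the anion exchanger AE2 of the blood-facing membrane, went from 83.4 ± 6.77 to 51.3 ± 1.99 CPM in females (SD, n = 3 and 3) and from 78.8 ± 2.03 to 52.8 ± 9.53 CPM in males (log2 fold change -0.64 ± 0.08, adjusted p = 0.0041 by edgeR). Car14, another membrane carbonic anhydrase, went from 16.1 ± 2.02 to 9.79 ± 0.45 CPM in females and from 17.4 ± 0.74 to 11.03 ± 2.75 CPM in males (-0.69 ± 0.11, adjusted p = 0.0120 by edgeR). Without Female CAIA replicate 1, Car14 had an adjusted p of 0.0552.

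**Figure D5:**
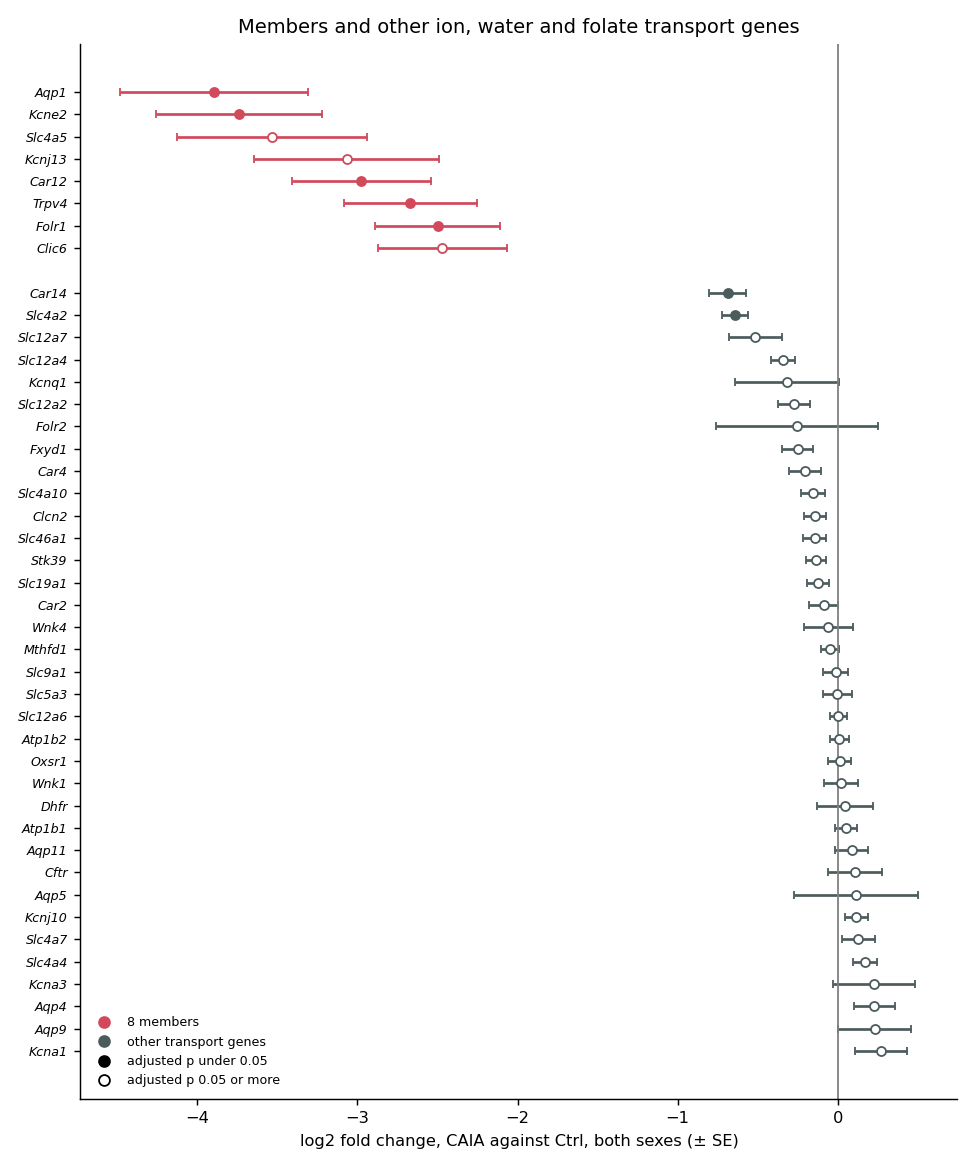
Log2 fold change between CAIA and Ctrl over both sexes, with bars of 1 standard error, for the 8 genes and below them other transport genes tested, each sorted by value. Filled points have an adjusted p under 0.05. The 8 genes lie between -3.89 and -2.47, and Slc4a2 (-0.64) and Car14 (-0.69) are the other genes that passed.

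By role, none of the 8 genes of chloride cotransport and its kinases passed (median log2 fold change -0.10). Slc12a2, the cotransporter NKCC1, averaged 171 CPM in Female Ctrl, 130 in Female CAIA, 151 in Male Ctrl and 137 CPM in Male CAIA (-0.27 ± 0.10, adjusted p = 0.542 by edgeR). Among the 6 other potassium and chloride channel genes (median 0.11) Kcnq1, a channel partner of KCNE2, was scarce, with group means from 0.441 to 0.908 CPM. The 4 tested water channel genes had a median of 0.17. For folate, the proton-coupled transporter Slc46a1 had -0.14 ± 0.07 and the reduced folate carrier Slc19a1 -0.13 ± 0.07, with adjusted p-values of 0.810 and 0.853 by edgeR.

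Within their own gene families the 8 genes held different ranks in Ctrl tissue, per kilobase. Kcne2 ranked 1 of 4 Kcne genes and Folr1 ranked 1 of 2 folate receptor genes. Clic6 ranked 2 of 5 after Clic4, Trpv4 ranked 2 of 6 after Trpv2, and Aqp1 ranked 3 of 11 after Aqp4 and Aqp6. Kcnj13 ranked 6 of 15 after genes led by Kcnj10, Car12 ranked 6 of 16 after genes led by Car2, and Slc4a5 ranked 6 of 10 after genes led by Slc4a10. The leading relatives did not pass: the adjusted p by edgeR was 0.866 for Aqp4, a water channel of astrocytes, 0.901 for Clic4 and 0.988 for Trpv2. Folr2 and Kcne4 had 0.972 and 0.779.

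For each member the non-member genes whose log2 ratio to it varied least over the 11 libraries were listed, out of 15556 genes whose mean level was 1 CPM or more. Folr1 had the closest match of the 8, Cldn2, a tight junction protein of leaky epithelia, with an SD of the log2 ratio of 0.190, followed by Enpp2 (0.228), the secreted enzyme autotaxin. Clic6 was matched by Enpp2 (0.212) and Sostdc1 (0.215), and Trpv4 by Enpp2 (0.295) and Cldn2 (0.300). Aqp1 was matched by Kl (0.441), the gene of klotho, and Ttr (0.588), and Kcne2 by Kl (0.383) and F5 (0.417), coagulation factor V. Slc4a5 was matched by F5 (0.400) and Mfrp (0.413), Car12 by Npr3 (0.359) and Mfrp (0.436), and Kcnj13 by Npr3 (0.369) and F5 (0.397). The median SD over all genes searched was between 1.53 and 2.61 for the 8 members. The genes listed for Clic6, Trpv4 and Folr1 came from one set of 3 genes, and none of these was listed for Aqp1, Kcne2 or Slc4a5. An SD over all 11 libraries includes the drop from Ctrl to CAIA, so the search favours genes with a similar fold change. Over both sexes the log2 fold change was -2.38 for Enpp2, -2.37 for Sostdc1 and -2.42 for Cldn2. It was -3.55 for Kl, -3.28 for F5, -3.26 for Mfrp and -4.32 for Ttr. The listing is thus no separate evidence for the sets seen in the ratios.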

How the data were processed

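RNA was sequenced from dissected lateral habenula tissue in 11 libraries, grouped by the labels. The authors deposited 1 table of whole-number counts per gene, for which the submitters' processing notes list the tools featureCounts 1.5.0-p3, HISAT2 2.0.5 and cutadapt 1.9.1 and the build GRCm38. The sources used here give no strand setting and no annotation release. Totals were 25317306 to 29565006 counts, and every one of the 54532 lines named a gene.

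Counts were fitted as deposited in edgeR 4.0.16 (R 4.3.3): TMM scaling, filterByExpr by group, 4 group means, robust quasi-likelihood test, 7 residual degrees of freedom, Benjamini-Hochberg adjustment over 19619 genes, called at 0.05. CPM are TMM-scaled. The fit took the 8 genes as unusually variable: their prior degrees of freedom were 0.426 to 1.36 against a median of 7.49. Ratios were log2 of counts plus 0.5, tested by exact permutation (scipy 1.17.1). Alternatives were other scalings and filters, DESeq2 1.42.0, limma-voom (limma 3.58.1), an additive model, each sex alone, a replicate block, pseudocounts of 1 and 5, and leaving out each library. The scripts were tested on simulated data. Positions are from GENCODE M21, which held 54409 of the gene IDs, and upstream sequences from RefSeq (GRCm38.p6).

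The 8 genes, the gene lists and the tests were chosen with earlier results of these data known. Named beside the 8 were Ttr, the transport genes that passed, Kcnq1, Slc12a2, Slc46a1, Slc19a1 and, for each of the 8, the 2 genes of steadiest ratio. One further gene of this rule is not reported here. Family members and overlapping genes were named after their values were seen.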

Additional observations from a re-analysis of the deposited data

Results flagged for a closer look

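Male CAIA replicate 2 was far from the other 5 CAIA libraries in 7 of the 8 genes. Its gap in CPM to the next CAIA library, as a share of the range over all 6, was 0.779 for Aqp1, 0.680 for Kcne2, 0.795 for Kcnj13, 0.901 for Clic6, 0.789 for Car12, 0.815 for Slc4a5 and 0.837 for Trpv4, each above Dixon's 95% critical value of 0.625 for 6 samples. Folr1 did not reach that value. Among the 5 Ctrl libraries, Female Ctrl replicate 3 was far above the others in Car12 (0.793, critical value 0.710 for 5 samples). In all, 16 groups of values were examined and 8 held such a library. Chance alone gives about 1 in 20, but the 7 values of Male CAIA replicate 2 come from 1 library and are not independent.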

How the results depend on the processing

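No log2 fold change of the 8 genes changed sign in any alternative, in either sex or over both. Over both sexes, against 5 calls, 8 genes were called by DESeq2 (196 of 19609 genes lower), limma-voom (133 of 19619) and with no count filter (291 of 35266), and 1 by an additive model (105 of 19619). In females, against 0, it was 8 by DESeq2 (168 genes lower), 7 by limma-voom (65), 8 with no count filter (405), 2 with at least 1 CPM in 3 libraries (50 of 16031) and 8 with the female libraries alone. With no count filter 8 were also called in males (123 genes lower, 300 higher) and 8 in the difference between sexes (301 lower, 15 higher). That fit had infinite prior degrees of freedom, so each gene took the spread of the trend and its own spread was ignored. Leaving out 1 library gave 0 to 8 calls over both sexes, 0 to 8 in females and 0 to 7 in males. A Male Ctrl group of 1 library was assumed to vary like the others.

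Correlations of deviations from the group mean ran from -0.206 to 0.104 for same-numbered libraries of different groups and from -0.248 to 0.248 for the others. They gave no sign that the replicate numbers paired the samples. With group means of 2 or 3 libraries such a check cannot exclude a pairing. With a replicate block 4 genes were called over both sexes (113 of all genes lower) and 1 in females (45).

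Of the ratios, 16 of 36 passed. Leaving out 1 library gave 0 to 16, and a pseudocount of 5 gave 18. The female libraries alone gave 0, since 3 against 3 cannot go below an exact permutation p of 0.1. Signs changed only in 3 ratios that had not passed and in Kcnq1. Kcne2 to Slc4a5 (-0.0924) was 0.0592 with a pseudocount of 5, -0.6572 in the female libraries alone and -0.1961 to 0.0109 without 1 library. Kcnj13 to Car12 (-0.235) was 0.0201 with a pseudocount of 5, 0.0194 in the female libraries alone and -0.3844 to 0.0417 without 1 library. Clic6 to Folr1 (0.0324) was -0.0088, -0.0345 and -0.1249 to 0.2145 in the same order. Kcnq1 was -0.5679 to 0.0759 without 1 library. The causes were not tested. Depth limits Aqp1, Kcne2 and Kcnj13 most, with 6 to 20 counts in the female CAIA libraries.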
